A study of Homo sapiens with 4 samples.

Results

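The genes described here are the matrix metalloproteinases (MMPs), the ADAM and ADAMTS proteases and the tissue inhibitors of metalloproteinases (TIMPs) of SK-N-BE(2)C, a human neuroblastoma cell line with amplified MYCN. They were chosen by gene symbol: 47 of the 55765 rows of the count table, made up of 13 MMP, 4 TIMP, 11 ADAM and 19 ADAMTS genes. A filter on low counts was passed by 36 of them. Cells had received 10 µM ATRA, all-trans retinoic acid, an acid form of vitamin A given to drive neuroblastoma cells towards differentiation, or ethanol, the solvent, for 144 h. Each treatment had 2 libraries, called ATRA 1, ATRA 2, ethanol 1 and ethanol 2 after their titles, where the second library of a treatment carries a 2 and the first no number. Libraries came from ribosomal-RNA-depleted total RNA of cultured cells of this line alone. No source used here says whether the libraries of a treatment were grown as separate cultures, and p-values therefore reflect just the spread among the 4 libraries, which may be technical. The RNA is from bulk cultures, so fewer cells of a type and less RNA per cell cannot be told apart.

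MMPs, ADAMs and ADAMTS proteases are zinc-dependent enzymes of the metzincin clan, made as inactive precursors whose propeptide must be removed or displaced. Secreted MMPs and ADAMTS enzymes cut and process the extracellular matrix, membrane-type MMPs do so at the cell surface, and most ADAMs shed the outer parts of membrane proteins such as Notch, APP and growth factor precursors. TIMPs bind the active site of these enzymes and block it, and in tumours of the sympathetic nervous system the balance of the enzymes and their inhibitors has been studied for its part in invasion and stroma formation.

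Totals per library ran from 12850462 to 19883465 counts. Levels are in CPM, the reads of a gene scaled to the adjusted size of its library. The libraries also differed by their number: MT-RNR1 and MT-RNR2, the mitochondrial ribosomal RNAs, held 2.49% and 0.130% of reads in ATRA 1 and ATRA 2, and 5.96% and 0.0291% in ethanol 1 and ethanol 2. Differences within each number are therefore given beside the pooled values, as ATRA 1 minus ethanol 1 and ATRA 2 minus ethanol 2 on the log2 CPM scale. Of the genes that mark neuroblastoma cells, PHOX2A had 454 and 275 CPM with ATRA, against 221 and 165 CPM with ethanol, and HAND2 had 382 and 334 CPM with ATRA, against 442 and 439 CPM with ethanol. The 5 endothelial markers summed to 0.957 to 1.15 CPM with ATRA and 0.496 to 2.46 CPM with ethanol, and the 4 epithelial markers to 1.29 to 1.73 CPM and 0.991 to 1.46 CPM, with KRT5 at 0 reads in every library. The 7 blood cell markers summed to 7.42 to 20.7 CPM with ATRA and 2.13 to 3.62 CPM with ethanol, of which CD14 made up most and CD68 had 0 reads. The 6 fibroblast-associated markers summed to 281 and 568 CPM in ATRA 1 and ATRA 2, against 396 and 699 CPM in ethanol 1 and ethanol 2, carried by THY1, DCN, PDGFRB and LUM. These markers did not share a direction. LUM had 13.7 and 21.8 CPM with ATRA against 39.8 and 126 CPM with ethanol, while PDGFRA had 7.86 and 2.15 CPM against 0.462 and 1.29 CPM. The test described next covered 0 of the 5 endothelial, 1 of 4 epithelial, 2 of 7 blood cell and 5 of 6 fibroblast-associated markers. The others in these groups had too few reads to be tested. PHOX2A and HAND2 were tested as well. None of the markers tested passed, and the part of the markers in the results was not tested.

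Differences between the treatments were uneven across the families. The clearest difference was ADAMTS14, a procollagen N-proteinase gene that was almost silent with ethanol and rose 28.3-fold with ATRA. It was the 1 gene of the 36 that passed the filter on low counts to be called at an adjusted p under 0.05 (edgeR quasi-likelihood, Benjamini-Hochberg over all 18900 genes tested), against 0.698% of all genes tested. By direction, 1 was higher against 0.545% of all genes and 0 were lower against 0.153%; limma-voom called 0 of the 36, against 0.265% of all genes, and DESeq2 called 9, against 7.92%. At an unadjusted p under 0.05, there were 14 of the 36, against 15.9% of all genes tested: 10 higher, against 9.43%, and 4 lower, against 6.49%. The median log2 fold change over the 36 was 0.76, and over all genes tested it was 0.01. Both ATRA libraries lay above both ethanol libraries for 16 of the 36 (44.4%), against 23.8% of all genes, and below both for 8 (22.2%), against 21.7%. Since a gene that is high in only 1 treatment can pass the filter through that treatment, these shares describe the 36 and support nothing further.

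**Figure D1:**
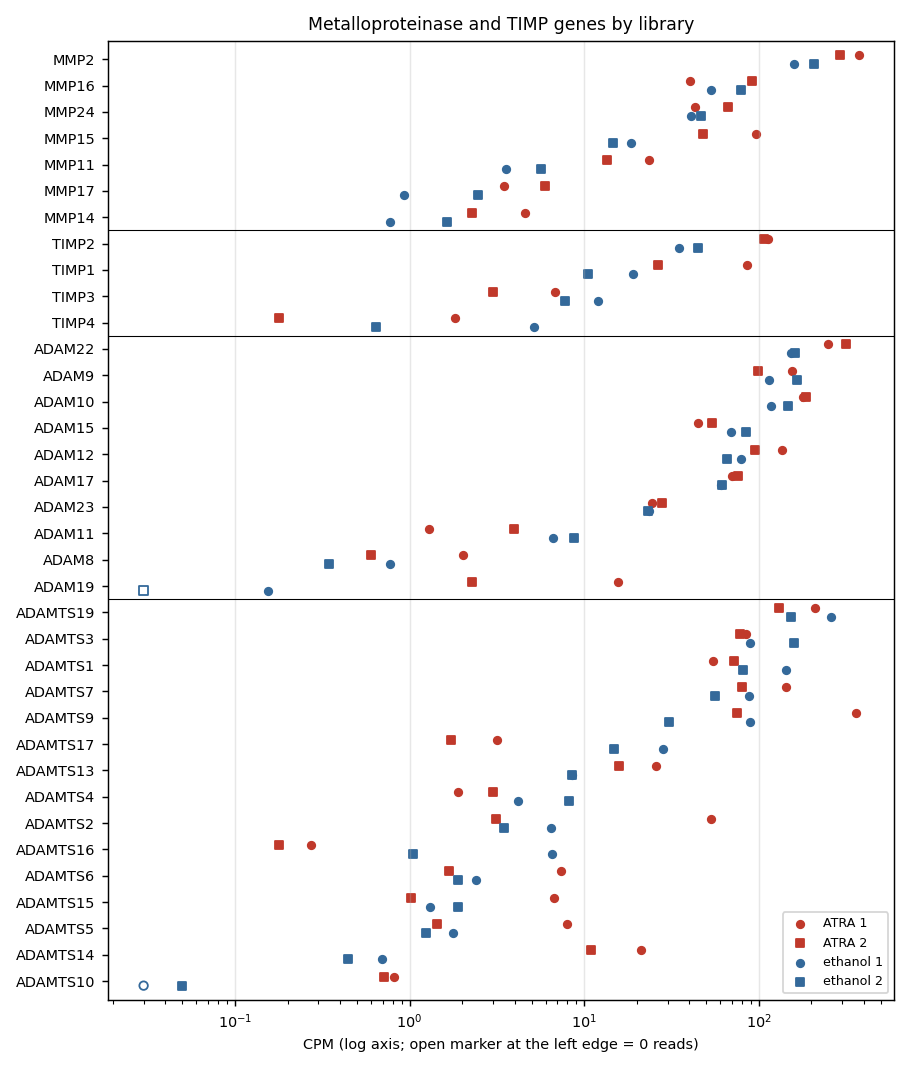
CPM in each of the 4 libraries for the 36 genes that passed the filter on low counts (log axis), with ATRA libraries in red above ethanol libraries in blue, circles for libraries numbered 1 and squares for those numbered 2, and lines parting the MMP, TIMP, ADAM and ADAMTS families. ADAMTS14 and ADAM19 show ATRA far to the right of ethanol, ADAMTS17 and ADAMTS16 far to the left, and ADAMTS2 and ADAMTS9 show ATRA 1 far to the right of ATRA 2.

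The start-site sequences of 3 genes with large differences are shown so that the regions can be compared: ADAMTS14, the gene that rose, MMP15, the membrane-type MMP with the largest fold change, and ADAMTS17, an ADAMTS gene at a lower level with ATRA. Each runs from 250 bases before to 50 bases after the start given by RefSeq on GRCh38.p14, on the gene's own strand: chr10:70672256-70672555 (plus strand), chr16:58025504-58025803 (plus strand) and chr15:100341926-100342225 (minus strand). Capitals mark GGGCGG, the GC box bound by Sp1-type factors, and AGGTCA, the core motif of retinoid and other nuclear receptors, on either strand; matches may overlap.
ADAMTS14: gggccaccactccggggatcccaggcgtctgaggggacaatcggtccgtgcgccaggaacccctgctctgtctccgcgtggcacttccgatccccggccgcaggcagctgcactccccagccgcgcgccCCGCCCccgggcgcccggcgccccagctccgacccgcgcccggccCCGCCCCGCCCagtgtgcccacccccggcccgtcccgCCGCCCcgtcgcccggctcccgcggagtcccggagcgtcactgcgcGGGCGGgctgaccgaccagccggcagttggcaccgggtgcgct
MMP15: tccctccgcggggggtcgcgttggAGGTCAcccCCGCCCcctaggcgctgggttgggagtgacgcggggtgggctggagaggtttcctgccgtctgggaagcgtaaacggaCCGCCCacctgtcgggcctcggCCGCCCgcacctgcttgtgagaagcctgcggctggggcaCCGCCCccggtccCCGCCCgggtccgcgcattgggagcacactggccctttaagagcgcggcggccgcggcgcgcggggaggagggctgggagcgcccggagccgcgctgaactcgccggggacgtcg
ADAMTS17: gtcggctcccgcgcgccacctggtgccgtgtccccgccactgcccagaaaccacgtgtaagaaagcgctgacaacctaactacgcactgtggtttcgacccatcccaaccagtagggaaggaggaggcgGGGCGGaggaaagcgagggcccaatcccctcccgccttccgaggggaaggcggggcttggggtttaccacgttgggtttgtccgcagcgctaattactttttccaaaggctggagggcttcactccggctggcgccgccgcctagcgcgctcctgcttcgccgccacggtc
The windows of ADAMTS14, MMP15 and ADAMTS17 are GC-rich, at 79.7%, 75.3% and 65.0% G and C. RefSeq windows were matched for 29 of the 47 genes. GGGCGG was found in 25 of the 29, against 45% of 35116 RefSeq windows of the same length, which also cover genes that are not protein-coding. AGGTCA was found in 2 of the 29, MMP15 and TIMP4, against 13.8% of all windows. TGAGTCA, the AP-1 site long studied in collagenase and stromelysin promoters, was found in 1 of the 29, MMP7, against 4.95% of all windows. MMP1 and MMP3 had no window among the 29, so their promoters were not searched for it. Direct repeats of the nuclear receptor motif were searched in the looser form RGKTCA, where R is A or G and K is G or T. Spaced by 1, 2 or 5 bases, such repeats were found in 0 of the 29, against 0.259% of all windows. These matches describe letters in a window and not occupied sites, and the start used in these cells may differ from the one RefSeq gives.

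Among the secreted and membrane-type MMPs, levels rested on MMP2. MMP2 encodes gelatinase A, which cuts denatured collagen and basement membrane collagen. It held 372 and 293 CPM in ATRA 1 and ATRA 2, against 159 and 208 CPM in ethanol 1 and ethanol 2. It made up 63.8% and 56.2% of all MMP CPM with ATRA and 57.3% and 57.9% with ethanol. The ATRA libraries were the higher ones without overlap, at a log2 fold change of 0.86 ± 0.27 (SE), outside the threshold (adjusted p = 0.204, edgeR quasi-likelihood; 1.23 and 0.50 within numbers). Per kilobase of annotated exon, MMP2 stood at 67.5 CPM with ATRA and 37.2 CPM with ethanol, the highest such level with ATRA of all 47 genes and, with ethanol, next to ADAMTS19.

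The membrane-type MMPs split by gene. MMP15 (MT2-MMP), a transmembrane collagenase-like enzyme, had 96.4 and 48.0 CPM in the ATRA libraries, against 18.6 and 14.7 CPM in the ethanol libraries. Its groups did not overlap, and its log2 fold change of 2.12 ± 0.40 was outside the threshold (adjusted p = 0.0805, edgeR quasi-likelihood; 2.37 and 1.70 within numbers). It was called in 6 of 10 alternative settings, a count that, like those below, leaves out the fit with the library number as a block. MMP14 (MT1-MMP), the surface activator of proMMP2, was far scarcer, with 4.61 and 2.27 CPM with ATRA against 0.770 and 1.64 CPM with ethanol. MMP17, whose product is held by a lipid anchor, had 3.45 and 5.98 CPM with ATRA against 0.924 and 2.48 CPM with ethanol. In both genes the ATRA libraries were above the ethanol libraries, while the log2 fold changes of 1.49 ± 0.67 and 1.45 ± 0.67 were not called (adjusted p = 0.360 and 0.367, edgeR quasi-likelihood). Within numbers, MMP14 differed by 2.40 and 0.45 and MMP17 by 1.77 and 1.23. MMP16 (MT3-MMP) and MMP24 (MT5-MMP, a neural member) overlapped between treatments, with means of 65.6 ± 36.1 and 54.8 ± 16.9 CPM with ATRA and 66.2 ± 18.2 and 43.7 ± 4.37 CPM with ethanol (SD, n = 2). By level per kilobase with ATRA the surface enzymes ran MMP15, MMP24, MMP16, MMP17 and MMP14, and with ethanol MMP24, MMP16, MMP15, MMP17 and MMP14. Per kilobase, the libraries of MMP15 and MMP24 overlapped with ATRA and those of MMP17 and MMP14 overlapped under both treatments, and the orders were not tested.

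Stromelysin-3, MMP11, is a secreted enzyme that unlike most MMPs leaves the cell already active, after furin cleavage. It had 23.4 and 13.5 CPM in the ATRA libraries, against 3.54 and 5.65 CPM in the ethanol libraries. The treatments did not overlap, and the log2 fold change of 2.00 ± 0.45 missed the threshold (adjusted p = 0.113, edgeR quasi-likelihood; 2.68 and 1.23 within numbers). The remaining 6 MMPs were at or near no reads. MMP1, the interstitial collagenase, had 5 reads with ATRA and 0 with ethanol. MMP3 and MMP10, the stromelysins, and MMP7, matrilysin, had at most 1 read in any library, and MMP7 had none. MMP9, gelatinase B, had 14 reads over the ATRA libraries and 15 over the ethanol libraries, and MMP19 had 5 and 7. A count of 0 in a library allows up to 0.149 to 0.231 CPM (3 counts, counting error only), so these enzymes were not detectable or barely detectable at this depth under either treatment.

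The TIMPs differed from each other. TIMP2, which inhibits MMPs and with MT1-MMP forms the complex that activates proMMP2, had 113 and 106 CPM with ATRA, against 35.0 and 44.7 CPM with ethanol. Its libraries agreed closely within each treatment, and its log2 fold change was 1.46 ± 0.25 (adjusted p = 0.0704, edgeR quasi-likelihood; 1.69 and 1.25 within numbers). TIMP1, which binds proMMP9 and inhibits most soluble MMPs, had 86.0 and 26.4 CPM with ATRA, against 18.9 and 10.5 CPM with ethanol. Both ATRA libraries were the higher ones, but ATRA 1 exceeded ATRA 2 by 3.25-fold, and the log2 fold change of 1.94 ± 0.61 missed the threshold (adjusted p = 0.201, edgeR quasi-likelihood). TIMP3, the matrix-bound inhibitor that also blocks ADAM17 and ADAMTS enzymes, had 6.77 and 2.99 CPM with ATRA, against 11.9 and 7.78 CPM with ethanol. It was the TIMP with both ATRA libraries below both ethanol libraries, at a log2 fold change of -1.01 ± 0.53 (adjusted p = 0.440, edgeR quasi-likelihood). TIMP4, an inhibitor of narrow tissue range, had 1.83 and 0.179 CPM with ATRA, against 5.16 and 0.644 CPM with ethanol. Its values followed the library number more than the treatment. They were lower with ATRA within both numbers (-1.44 and -1.34), though the libraries overlapped. The pooled log2 fold change was -1.52 ± 1.29 (adjusted p = 0.672, edgeR quasi-likelihood). TIMP2 and TIMP1 together made up most of the TIMP signal in CPM, with TIMP2 alone at 54.5% and 78.2% of the family in ATRA 1 and ATRA 2 and at 49.2% and 70.3% in ethanol 1 and ethanol 2.

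In GENCODE, 33 of the 47 genes overlap another gene, 12 of them a protein-coding one, and the neighbours named here were taken for that overlap. TIMP1, TIMP3 and TIMP4 each lie inside a synapsin gene on the other strand, SYN1, SYN3 and SYN2. The libraries were made with a directional kit but the strand setting of the counting is not given, so reads of such pairs are uncertain. SYN1 had 163 and 215 reads with ATRA and 116 and 139 reads with ethanol, at a log2 fold change of 0.60 against 1.94 for TIMP1. SYN3 had 10 and 15 reads with ATRA and 5 and 9 reads with ethanol, so it was scarcer than TIMP3, and its log2 fold change was 0.90 against -1.01. SYN2 had 693 and 275 reads in ATRA 1 and ATRA 2 and 1063 and 319 reads in ethanol 1 and ethanol 2, and like TIMP4 it was higher in the libraries numbered 1. The part of SYN2 reads in the TIMP4 counts was not tested. None of these synapsin genes was called (edgeR quasi-likelihood, adjusted p of 0.510, 0.650 and 0.818 for SYN1, SYN3 and SYN2). MMP11 overlaps CHCHD10 on the other strand, which had 419 and 185 reads with ATRA and 587 and 334 reads with ethanol, at a log2 fold change of -0.64 against 2.00 for MMP11. REXO4, across from ADAMTS13, was at -0.44, against 1.29 for ADAMTS13.

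**Figure D2:**
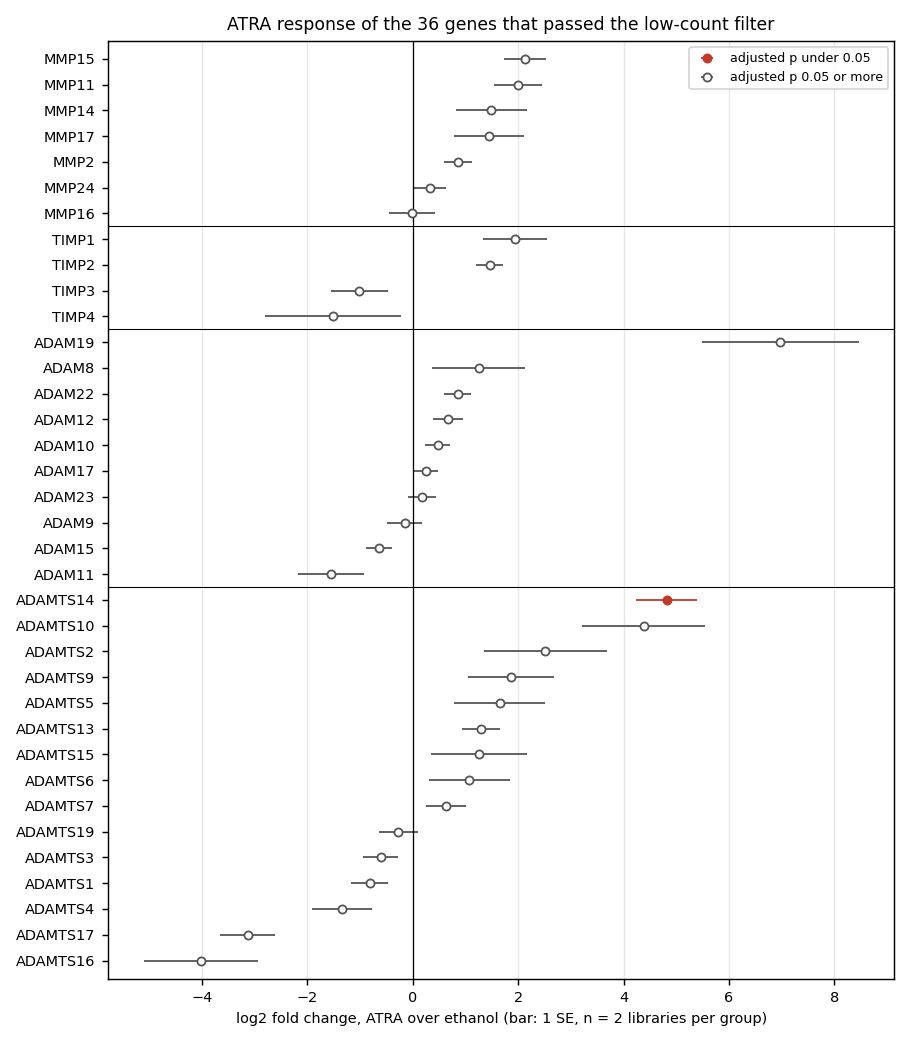
Log2 fold change of ATRA over ethanol for the same 36 genes, sorted within each family, with bars of 1 SE. The red point is ADAMTS14 at 4.82 ± 0.58, and the points of ADAM19 and ADAMTS10 rest on 2 and 1 ethanol reads.

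The widely used sheddases differed little. ADAM10, the main sheddase of Notch, N-cadherin and APP, had 180 and 185 CPM in the ATRA libraries, against 117 and 146 CPM in the ethanol libraries. ADAM17, which releases TNF and EGF receptor ligands, had 70.0 and 75.9 CPM with ATRA, against 61.1 and 61.8 CPM with ethanol. In both the ATRA libraries were the higher ones by a small margin, with log2 fold changes of 0.47 ± 0.24 and 0.25 ± 0.23 (adjusted p = 0.429 and 0.702, edgeR quasi-likelihood). ADAM9, a broad-range sheddase, overlapped between treatments (126 ± 39.4 CPM with ATRA and 140 ± 36.2 CPM with ethanol, SD, n = 2). ADAM15, which carries an integrin-binding motif, was at 45.0 and 53.7 CPM with ATRA, against 69.4 and 84.8 CPM with ethanol. Its ATRA libraries were the lower ones within both numbers, by -0.62 and -0.66, and the pooled difference of -0.64 ± 0.25 was not called (adjusted p = 0.292, edgeR quasi-likelihood).

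ADAM19 stood out by size. ADAM19 (meltrin beta) sheds neuregulins and takes part in heart and nerve development in mice. It had 231 and 38 reads in ATRA 1 and ATRA 2, against 2 and 0 reads in ethanol 1 and ethanol 2, which is 15.6 and 2.27 CPM against 0.154 and 0 CPM. The ratio of reads was 142, with a 95% exact counting interval of 38.9 to 1176, and both ATRA libraries were above both ethanol libraries. The ATRA libraries differed from each other by 6.88-fold, and the gene was not called (adjusted p = 0.101, edgeR quasi-likelihood), although it was in 6 of 10 alternative settings. On the opposite strand GENCODE places CYFIP2 over part of ADAM19, with 375 and 789 reads with ATRA and 105 and 295 reads with ethanol. CYFIP2 was also higher with ATRA, at a log2 fold change of 1.67 against 6.97 for ADAM19, and was not called. Unlike ADAM19, CYFIP2 had more reads in ATRA 2 than in ATRA 1. The part of CYFIP2 reads in the ADAM19 counts was not tested. ADAM12 (meltrin alpha), the closest relative of ADAM19 in the set, had 136 and 94.5 CPM with ATRA, against 79.1 and 65.7 CPM with ethanol (log2 fold change 0.67 ± 0.28, adjusted p = 0.329, edgeR quasi-likelihood). ADAM8, mostly known from leukocytes, had 2.03 and 0.598 CPM with ATRA and 0.770 and 0.347 CPM with ethanol, and ADAM33 was near 0, at 3 reads with ATRA and 2 with ethanol.

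ADAM11, ADAM22 and ADAM23 lack the zinc-binding residues of an active protease and act as neuronal adhesion proteins and receptors of LGI proteins. ADAM22 was the most abundant ADAM by CPM in both ATRA libraries, with 248 and 316 CPM, against 153 and 160 CPM with ethanol. The groups were well apart and both numbers gave a like difference (0.70 and 0.98), while the pooled log2 fold change of 0.85 ± 0.25 missed the threshold (adjusted p = 0.177, edgeR quasi-likelihood). ADAM23 had 24.5 and 27.8 CPM with ATRA and 23.3 and 23.0 CPM with ethanol. ADAM11 had 1.29 and 3.95 CPM with ATRA, against 6.62 and 8.77 CPM with ethanol, lower within both numbers (-2.26 and -1.13) and not called (adjusted p = 0.312, edgeR quasi-likelihood). The catalytically inactive ADAMs thus had 1 member with both ATRA libraries clearly above, 1 at nearly the same level and 1 below.

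The ADAMTS genes held the widest range, from a log2 fold change of -4.02 to 4.82 over the 15 that passed the filter. The procollagen N-proteinases ADAMTS2, ADAMTS3 and ADAMTS14, which trim the amino end of fibrillar procollagens, went separate ways. ADAMTS14 had 21.1 and 10.9 CPM in ATRA 1 and ATRA 2 (312 and 182 reads), against 0.693 and 0.446 CPM in ethanol 1 and ethanol 2 (9 reads in each). Both ATRA libraries were far above both ethanol libraries, and the rise of 4.82 ± 0.58 on the log2 scale passed (adjusted p = 0.0410, edgeR quasi-likelihood), with 4.70 and 4.27 within numbers. The call held in 9 of 10 alternative settings and ended with limma-voom (adjusted p = 0.0719; 1.12e-12 to 0.0719 over the 10), with log2 fold changes of 4.26 to 5.21. GENCODE lists no gene overlapping ADAMTS14.

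ADAMTS2, by contrast, was high in a single library. It had 53.5 CPM in ATRA 1 and 3.11 CPM in ATRA 2, against 6.47 and 3.47 CPM in the ethanol libraries. ATRA 2 thus lay below both ethanol libraries, the differences within numbers had opposite signs (3.02 and -0.15), and without ATRA 1 the log2 fold change turned to -0.67. ADAMTS3, which also processes the lymphatic growth factor VEGFC, had 84.3 and 78.0 CPM with ATRA, against 89.1 and 159 CPM with ethanol. Its ATRA libraries were the lower ones without overlap (-0.61 ± 0.33, adjusted p = 0.453, edgeR quasi-likelihood). The gene was uneven within numbers, at -0.08 and -1.03. It was the most abundant N-proteinase gene per kilobase under both treatments, at 11.3 CPM with ATRA and 17.3 CPM with ethanol. ADAMTS14 reached 3.04 CPM per kilobase with ATRA, against 0.108 with ethanol, beside 3.24 and 0.569 for ADAMTS2.

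The proteoglycan-cutting ADAMTS genes, whose products cleave aggrecan and versican, did not share a direction. ADAMTS1 had 54.7 and 72.4 CPM with ATRA, against 143 and 81.5 CPM with ethanol. ADAMTS4 had 1.90 and 2.99 CPM with ATRA, against 4.16 and 8.23 CPM with ethanol. These 2 genes had both ATRA libraries below both ethanol libraries, at log2 fold changes of -0.82 ± 0.35 and -1.34 ± 0.56 that were not called (adjusted p = 0.329 and 0.328, edgeR quasi-likelihood). Within numbers, ADAMTS1 was uneven at -1.39 and -0.17, and ADAMTS4 was at -1.08 and -1.42. ADAMTS9 had 361 and 75.0 CPM in ATRA 1 and ATRA 2, against 89.4 and 30.7 CPM in ethanol 1 and ethanol 2. It was higher with ATRA within both numbers (2.01 and 1.28), but ATRA 2 lay below ethanol 1, so the groups overlapped (log2 fold change 1.86 ± 0.82, adjusted p = 0.347, edgeR quasi-likelihood). Its antisense neighbour ADAMTS9-AS2 had 320 and 115 reads with ATRA and 84 and 35 reads with ethanol, at a log2 fold change of 1.81, and reads of this pair are uncertain for the reason given for the TIMPs. ADAMTS5 had 7.99 and 1.44 CPM with ATRA against 1.77 and 1.24 CPM with ethanol, and ADAMTS15 had 6.71 and 1.02 CPM against 1.31 and 1.88 CPM. In both, ATRA 1 alone was above both ethanol libraries. ADAMTS8 and ADAMTS20 had 1 and 4 reads with ATRA and 0 and 2 with ethanol.

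The other ADAMTS genes included the most negative fold changes of the 36. ADAMTS17, mutated in a Weill-Marchesani-like syndrome of short stature and lens defects, had 3.18 and 1.74 CPM with ATRA, against 28.3 and 14.8 CPM with ethanol. The treatments were far apart and the numbers gave like differences (-3.11 and -3.002), and the log2 fold change of -3.13 ± 0.52 was just outside the threshold (adjusted p = 0.0668, edgeR quasi-likelihood). It was called lower in 6 of 10 alternative settings. ADAMTS16, a gene of kidney and gonad, had 4 and 3 reads with ATRA, against 85 and 21 reads with ethanol. Both ATRA libraries were the lower ones, though the ethanol libraries differed widely (6.54 and 1.04 CPM), and its log2 fold change was -4.02 ± 1.09 (adjusted p = 0.153, edgeR quasi-likelihood). ADAMTS18, the closest relative of ADAMTS16, had 2 reads with ATRA and 4 with ethanol.

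ADAMTS13, the protease that cuts von Willebrand factor, had 25.7 and 15.9 CPM with ATRA, against 8.47 CPM in each ethanol library (log2 fold change 1.29 ± 0.36, adjusted p = 0.165, edgeR quasi-likelihood). ADAMTS10, linked to fibrillin microfibrils, had 12 reads in each ATRA library, against 0 and 1 reads in ethanol 1 and ethanol 2. The ratio was 25.3, with a 95% exact counting interval of 4.12 to 1039.9. ADAMTS6, its closest relative, had 7.32 and 1.68 CPM with ATRA against 2.39 and 1.88 CPM with ethanol, so that ATRA 1 alone stood above. ADAMTS7, which cuts cartilage oligomeric matrix protein, overlapped between treatments (111 ± 44.3 CPM with ATRA and 71.8 ± 22.2 CPM with ethanol, SD, n = 2), and ADAMTS12, with the same substrate, counted 19 ATRA reads and 6 ethanol reads (ratio 3.34, interval 1.28 to 10.2). ADAMTS19 was the most abundant ADAMTS per kilobase under both treatments, at 31.6 CPM with ATRA and 38.2 CPM with ethanol, and its libraries overlapped (log2 fold change -0.27 ± 0.37).

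The spread between the ATRA libraries was itself large in these genes. ATRA 1 exceeded ATRA 2 by over 2-fold in 12 of the 36 (33.3%), against 11.5% of all genes tested. These were 5 ADAMTS, 3 TIMP, 2 ADAM and 2 MMP genes, with CPM ratios of 17.2 for ADAMTS2, 10.2 for TIMP4, 6.88 for ADAM19 and 6.59 for ADAMTS15. MMP16 and ADAM11 went the other way, at ratios of 0.440 and 0.326. Summed over each family, MMP levels were 584 and 522 CPM in ATRA 1 and ATRA 2, against 278 and 358 CPM in ethanol 1 and ethanol 2. TIMP levels summed to 208 and 136 CPM with ATRA, against 71.0 and 63.6 CPM with ethanol. Both family sums were higher in each ATRA library than in each ethanol library, and so was that of the ADAMs (876 and 858 CPM, against 625 and 716 CPM). The ADAMTS sum was 982 and 476 CPM with ATRA, against 730 and 522 CPM with ethanol, and overlapped.

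**Figure D3:**
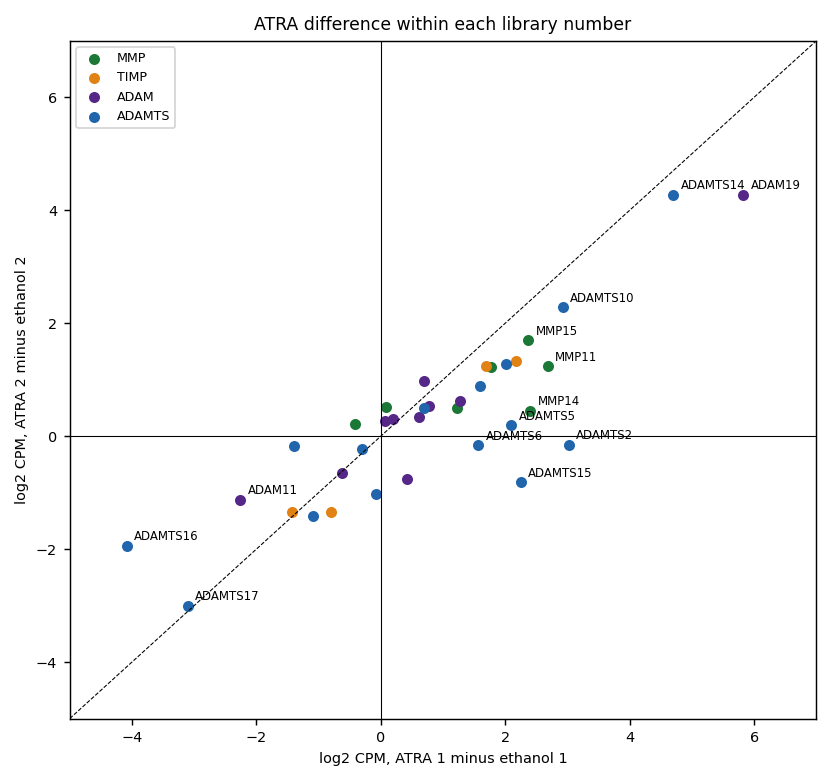
Difference in log2 CPM between ATRA and ethanol in the libraries numbered 1 (horizontal axis) and numbered 2 (vertical axis) for the 36 genes, coloured by family, with a dashed line of equal difference. ADAMTS14 lies near the line at 4.70 and 4.27 and ADAMTS17 at -3.11 and -3.002, while ADAMTS2 lies at 3.02 and -0.15.

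Of the 36 genes, 21 were higher with ATRA within both numbers, where 38.3% of all genes were, and 10 were lower within both, where 35.3% were. Since a gene can pass the filter through the treatment in which it is high, these counts also describe the 36 and support nothing further. The 5 others changed sign between the numbers: ADAMTS2, ADAMTS6, ADAMTS15, MMP16 and ADAM9.

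Partners, regulators and substrates of these proteases were taken from 9 lists, with all genes tested at a median log2 fold change of 0.01. The list medians, here and below, cover only genes that passed the filter on low counts. A gene can pass it through the treatment in which it is high, so these medians describe the tested genes and support nothing further. The counts below stand against 0.545% of all genes tested called higher and 0.153% called lower. Of 19 tested activators and regulators of shedding, 1 rose and 0 fell (median 0.40). The gene that rose was PLAT, which encodes tissue plasminogen activator. This enzyme turns plasminogen into plasmin, which can activate proMMPs. PLAT had 848 and 475 CPM with ATRA, against 39.3 and 45.5 CPM with ethanol (log2 fold change 3.96 ± 0.38, adjusted p = 0.0322, edgeR quasi-likelihood). PLG, the plasminogen gene, is named after its values were seen and had 1 read with ATRA and 0 with ethanol. Of 13 tested inhibitors and clearance genes outside the TIMPs, 1 rose and 1 fell (median 0.92). THBS2, thrombospondin-2, which carries MMP2 to its clearance receptor, rose to 11.7 and 29.4 CPM with ATRA, against 0.693 and 0.446 CPM with ethanol (adjusted p = 0.0410, edgeR quasi-likelihood). SPOCK3, a testican that inhibits activation of proMMP2 by membrane-type MMPs, fell to 2.24 and 6.76 CPM with ATRA, against 69.4 and 88.7 CPM with ethanol (log2 fold change -4.13 ± 0.56, adjusted p = 0.0459, edgeR quasi-likelihood). THBS2 was not called with limma-voom (adjusted p = 0.0873), nor was SPOCK3 with limma-voom (0.0502) or with library size alone (0.0531).

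Among substrates, 2 of 12 tested ADAMTS substrates and procollagens rose (median 1.10). COL3A1, a fibrillar procollagen whose amino propeptide ADAMTS2, ADAMTS3 and ADAMTS14 can remove, had 112 and 27.7 CPM with ATRA, against 0.539 and 1.09 CPM with ethanol, and FN1, fibronectin, had 464 and 682 CPM against 21.7 and 33.8 CPM. Both had every ATRA library above every ethanol library (adjusted p = 0.0459 and 0.0274, edgeR quasi-likelihood), and COL3A1 was not called without ethanol 1 (adjusted p = 0.160, edgeR quasi-likelihood) or with limma-voom (0.116). Of 35 tested substrates of ADAM sheddases, 0 rose and 1 fell (median 0.67): DLK1, a Notch-like membrane protein that ADAM17 can shed, fell to 5.49 and 10.3 CPM with ATRA, against 616 and 827 CPM with ethanol. Of 9 tested partners of ADAM22 and ADAM23, 1 rose (median 1.33), DLG2, a postsynaptic scaffold, with 353 and 401 CPM with ATRA against 6.85 and 11.6 CPM with ethanol. DLK1 and DLG2 each had an adjusted p of 0.0163 (edgeR quasi-likelihood).

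In the remaining lists no gene was called by edgeR quasi-likelihood. Of the 14 tested basement membrane genes (median 0.69), AGRN was at a log2 fold change of 1.69 ± 0.28 and NID1 at 4.28 ± 0.82. The 9 tested metzincins outside the set had a median of 0.74, and BMP1, the procollagen C-proteinase, had 83.7 and 28.1 CPM with ATRA against 28.7 and 26.9 CPM with ethanol. PAPPA2, a pappalysin that cuts insulin-like growth factor binding proteins, had 1.56 and 4.49 CPM with ATRA against 0.693 and 1.73 CPM with ethanol, and its libraries overlapped. Of the 4 tested ADAMTS-like genes, which share the ADAMTS ancillary domains without a protease, THSD4 had 113 and 21.2 CPM with ATRA against 1.85 and 0.248 CPM with ethanol, and ADAMTSL2 had 3.12 and 2.39 CPM against 12.4 and 7.48 CPM (adjusted p = 0.0851 and 0.138, edgeR quasi-likelihood; list median 0.50). The 22 transcription factors known to act on MMP promoters had a median of 0.23, with ETS2 at 1.15 ± 0.27 and STAT3 at 1.20 ± 0.32.

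**Figure D4:**
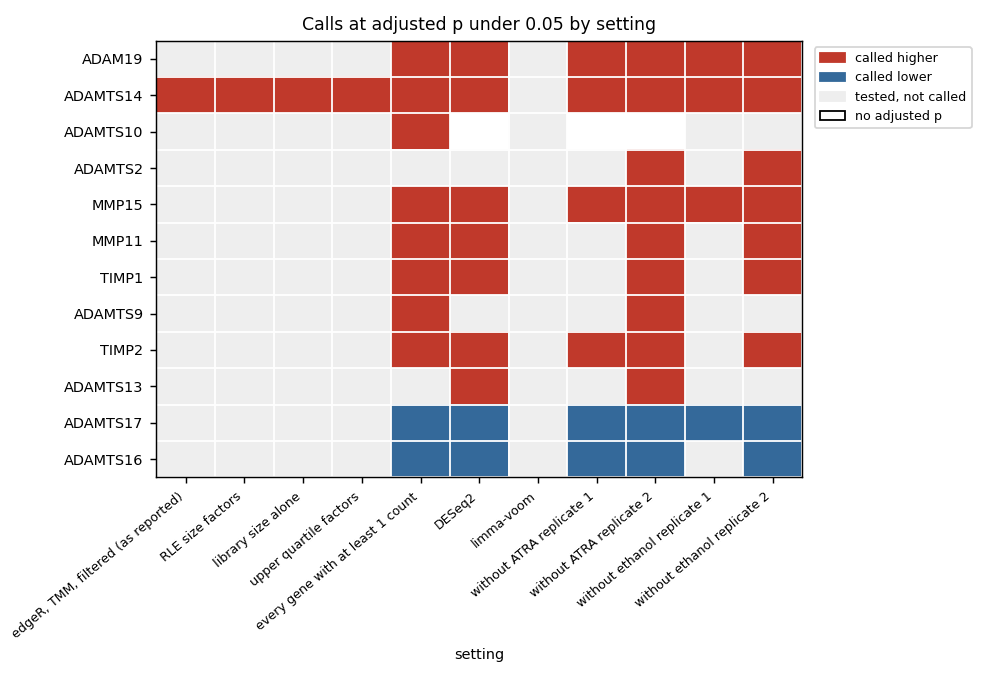
Calls at an adjusted p under 0.05 (edgeR unless another tool is named) for the 12 genes called in at least 1 of the settings shown, with settings in columns, red for higher and blue for lower with ATRA, grey for tested but not called and white where no adjusted p was given. ADAMTS14 is coloured in every column but limma-voom, and MMP15, ADAM19 and ADAMTS17 each have 6 coloured cells.

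The plot of calls by setting has to be read against the share of all genes called in each. That share was 0.725% with RLE size factors, 0.624% with library size alone and 0.73% with upper quartile factors, and 1 of the 36 was called in each. With every gene of at least 1 count it was 4.88%, where 10 of the 46 members then tested were called. Without ATRA 1, ATRA 2, ethanol 1 or ethanol 2 it was 4.2%, 6.96%, 4.35% and 5.88%, where 6, 11, 4 and 9 of the set were called. MMP15, ADAM19 and ADAMTS17 were called in the same 6 of these settings, and 24 of the 36 genes in none of them. The fit with the library number as a block is not among them, and with it 13 of the 36 were called in no setting.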

How the data were processed

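Values deposited by the authors are read counts for each gene symbol in the 4 libraries, with no normalization. Per the submitters' processing notes, STAR 2.5.2b, featureCounts 1.5.1 and build hg19 were named; which annotation and strand setting were used is not given in the sources used here. Counts were fitted with edgeR 4.0.16 in R 4.3.3 (filterByExpr, minimum count 10; TMM; quasi-likelihood F test, robust; treatment as sole term; 2 residual degrees of freedom), two-sided, with Benjamini-Hochberg adjustment over all genes tested and a threshold of 0.05. The SE is the size of the log2 fold change over the square root of F. Log2 CPM used a prior count of 2. Exon lengths and overlaps came from GENCODE 29 on GRCh38, used for no coordinates; 33 of the 47 genes overlap another gene there. Ratios of reads have 95% exact intervals, which, like floors of 3 counts, cover counting error only (no molecular identifiers). For each list the text names at most 2 called genes per direction, or, with none called, the 2 of smallest p, if mean log2 CPM was 1 or more. Overlapping neighbours were added by position, and PLG after its values were seen. NECTIN1 was read under its older symbol PVRL1. Some marker values are not reported here. Members and lists were chosen with earlier results of these data known. Alternatives used limma 3.58.1, DESeq2 1.42.0, other scalings, no filter, the replicate block, and each library left out.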

Additional observations from a re-analysis of the deposited data

How the results depend on the processing

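Other scalings (RLE, upper quartile, library size alone) left 1 gene of the set called, ADAMTS14, with 118 to 138 genes called in all, against 132. With every gene of at least 1 count, 10 of 46 were called (8 higher, 2 lower) among 1821 genes (1126 higher, 695 lower). DESeq2 called 9 (7 and 2) among 1380 (877 and 503), and limma-voom 0 (0 higher) among 50 (43 and 7). Without 1 library, 4 to 11 of the set were called, 3 to 9 higher and 1 to 2 lower, among 870 to 1442 genes, 547 to 838 higher and 231 to 604 lower; a treatment left with 1 library is then assumed to vary like the other. With the library number as a replicate block, 22 of the set were called (15 and 7) among 4098 genes (2325 and 1773; 21.7% of those tested), and COL3A1 was not (adjusted p = 0.0613, edgeR quasi-likelihood). The labels do not say that the number pairs libraries; the differences between libraries 1 and 2 correlated at 0.632 between treatments over 18900 genes, which are not independent replicates. Signs turned for genes that were not called in the fit reported above. With 1 library left out, the log2 fold change ran from -0.74 (without ATRA 2) to 0.45 (without ATRA 1; 0.32 without ethanol 2) for MMP16, from -0.040 (without ATRA 2) to 0.60 for MMP24, from -3.92 to 0.58 (without ethanol 1) for TIMP4, and from -0.52 to 0.15 (without ethanol 2; 0.12 without ATRA 2) for ADAM9. Without ATRA 1 it was lowest for ADAMTS2 (-0.67 to 3.43), ADAMTS5 (-0.063 to 2.40), ADAMTS6 (-0.35 to 1.77) and ADAMTS15 (-0.67 to 2.05). For ADAMTS19 it ran from -0.65 to 0.11 (without ethanol 1; 0.02 without ATRA 2). ADAMTS2 was called higher without ATRA 2 and without ethanol 2. Why the counts of calls differ was not tested. In the other lists, counts of genes called higher ranged from 0 to 16 and lower from 0 to 4 over all settings. The 16 and the 4 came with the replicate block, where 12.3% of all genes were called higher and 9.38% lower. Depth limits ADAMTS10, which was filtered out without either ATRA library and has no adjusted p from DESeq2, and the 11 genes with at most 10 reads in any library.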
